A study of Mus musculus with 34 samples.

Results

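The passage of 7qF3 deletion cells from embryonic stem cells (ESCs) to neural progenitor cells (NPCs) was followed in 6 RNA libraries, 3 of deletion ESCs (replicates 1, 2 and 3) and 3 of deletion NPCs (replicates 1, 3 and 5). They were taken by their labels from a series of 34 samples, 28 of which are RNA libraries, and 29876 entries of the gene table remained after the synthetic spike-in RNAs were left out. The 7qF3 interval of mouse chromosome 7 corresponds to the human 16p11.2 region, and the genes of it followed here lay between 133832441 and 134361959 on chromosome 7 (mm9). The deletion lines carry the background strain C57BL/6N and the genotype 129Sv df/+, so that 1 copy of the interval is missing at both stages. Control lines (C57BL/6N, 129Sv +/+; 3 ESC and 5 NPC libraries) and duplication-deletion lines (C57BL/6N, 129Sv df/dp; 3 and 3 libraries) went through the same course and are used here only where the deletion course is set against theirs. In all groups ESCs grew on gelatine in 15% serum with 2000 U/ml of LIF, the cytokine that holds mouse ESCs in the naive state. NPCs were made by 4 weeks in Activin and FGF2, 1 week as epiblast stem cells and 5 days of differentiation towards the ventral midbrain. Nothing in the labels tells clones, derivations and wells apart among the replicates, so the p-values below measure the spread between these libraries, which may be technical, and how many independent lines stand behind a group is not known.

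Naive ESCs are kept by a circuit of transcription factors around Pou5f1, Sox2, Nanog, Esrrb and the Klf factors, fed by LIF through Stat3. On leaving that state cells pass through an epiblast-like stage in which Activin and FGF signals act, and they then take a neural fate marked by Sox1, nestin and N-cadherin. In the ventral midbrain, Sonic hedgehog from the floor plate, together with Foxa2 and Lmx1a, specifies the progenitors of dopaminergic neurons.

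The libraries held between 5578151 (deletion ESC 3) and 59794312 (deletion NPC 1) counts, with 24053970 in NPC 5 and at least 35411529 in the other 3. One entry, GU332589, took between 20.6% and 28.3% of the counts in 5 of the 6 libraries, and the Lars2 entry took 23.1% in ESC 3. In the first 2 principal components the stages separated along the first, with 76.0% of the variance, and ESC 3 and NPC 5, the shallowest library of each stage, lay apart along the second, with 10.8%. The labelled genotype was checked on the interval itself: relative to the control mean of the same stage, the median interval gene stood at 38.4%, 44.2% and 51.4% in the 3 deletion ESC libraries (44.7% ± 6.52, SD, n = 3, over 26 genes). In the deletion NPC libraries it stood at 49.6%, 47.9% and 72.3% (56.6% ± 13.6, SD, n = 3, over 22 genes), and NPC 5 was the highest of the 6. Levels below are counts scaled to a common depth (CPM) on a scale common to all 20 ESC and NPC libraries, listed for ESC 1, 2 and 3 and then for NPC 1, 3 and 5. They are not divided by gene length, so levels of different genes are not compared. Fold changes are NPC against ESC on the log2 scale with their standard error (SE), and a gene is called where the adjusted p of edgeR's quasi-likelihood test is at most 0.05.

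Of 16022 genes tested, 5646 were called (35.2%), 3033 of them higher in NPCs (18.9%) and 2613 lower (16.3%). The counts of called list members below are to be read beside these shares. The median log2 fold change over all genes was 0.08, so the changes below are relative to a centre near 0. Scaling by library size alone moved that median to 0.42 and the share of higher among the called genes from 53.7% to 67.2%. Some 300 called genes had no count in any deletion ESC library and 309 had none in any deletion NPC library. The libraries of the stages did not overlap for 49.8% of the genes, and a test against a log2 fold of 1 called 11.5% higher and 9.87% lower. For genes at 0 the fitted fold change depends on the prior count, and a fold against 3 counts over the group is given in its place.

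**Figure D1:**
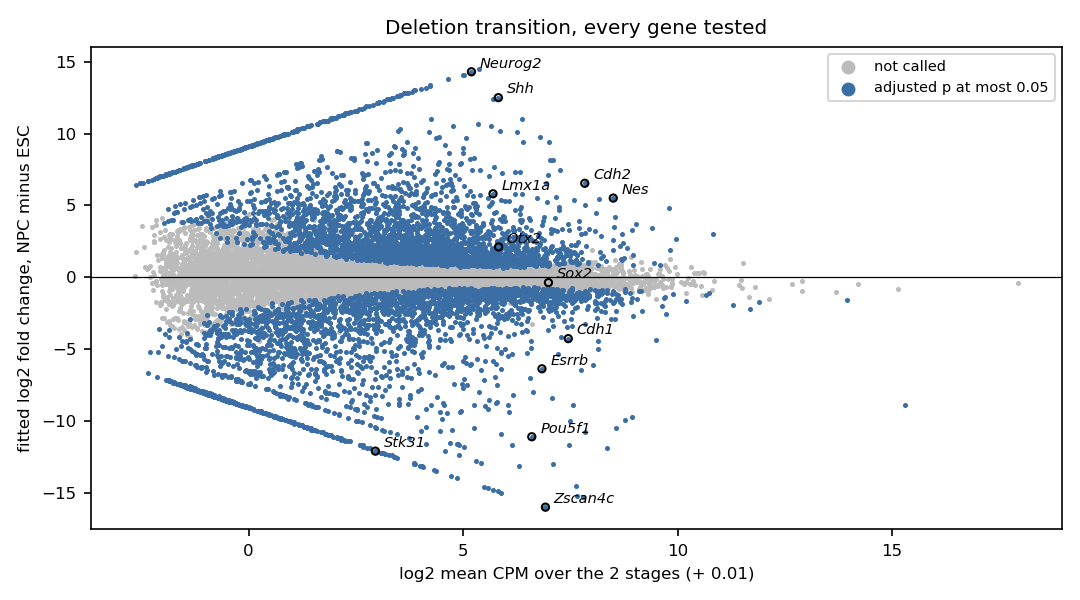
Fitted log2 fold change of NPC over ESC in deletion cells (vertical axis) against log2 mean CPM over both stages (horizontal axis), 1 point per gene tested. The 5646 called genes are blue, and the straight edges at the upper and lower left are the genes with no count in one of the stages.

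A fixed rule (10 in each direction, at least 5 CPM on average) named genes by fitted fold change. That fold change depends on the prior count where a stage holds no count. The falls the rule named were 4 Zscan4 paralogues, Triml1, Gm13235, Gm5662, the unannotated CH29-166C20.9-001, Dppa4 and Nanogpd, an entry that overlaps Nanog. The Zscan4 paralogues are near-identical, and reads may be split among them. The rises the rule named included Neurog2, Neurod4, St18 and Ebf2, all transcription factors of neuronal differentiation, and the orphan receptor Nr2f1. The other rises were Cxxc4, Itgb8, Myo16, Trim9 and AK039117. All 10 of the rises started from 0 counts in the 3 ESC libraries, so their order by size is not given. Dppa4, a chromatin factor of pluripotent and germ cells, stood at 541, 663 and 121 CPM in ESCs and at 0, 0 and 0.0353 CPM in NPCs. Its ESC 3 value was the lowest of its stage and the 2 stages did not overlap.

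All 27 tested members of the naive pluripotency list fell, with a median log2 fold change of -8.72 (-8.37 with the genes at 0 taken at their bound); without NPC 5 the fitted median was -9.75. Esrrb, an orphan nuclear receptor that works with Nanog, stood at 210, 219 and 249 CPM in the ESC libraries and at 3.86, 2.07 and 2.05 CPM in the NPC libraries. This is a log2 fold change of -6.37 ± 0.394 (SE, adjusted p = 2.17e-05), and every NPC library kept a low level. Klf4, a factor of the LIF response, went from 28.6, 20.4 and 45.3 to 0.694, 0.74 and 0.812 CPM (-5.36 ± 0.432, SE, adjusted p = 4.9e-05). Zfp42 (Rex1), a classic marker of naive cells, stood at 369, 469 and 218 CPM and then at 0, 0 and 0.423 CPM, so that NPC 5 alone held counts of it (-11.71 ± 1.23, SE, adjusted p = 0.000152). Fbxo15, an F-box gene that Pou5f1 and Sox2 activate, had the smallest p of the list and fell from 102, 122 and 103 to 0.226, 0.228 and 0.318 CPM. The growth factor Gdf3 had no count in any NPC library and was at least 2020-fold lower. The smallest falls of the list were on the LIF side, in the receptor Lifr (-1.37 ± 0.273, SE) and its effector Stat3 (-1.55 ± 0.276, SE). Factors shared by naive and primed cells fell in 16 of 18 cases and 1, Lin28b, rose. Pou5f1, the POU factor without which pluripotent cells do not persist, stood at 171, 180 and 231 CPM and then at 0.0646, 0 and 0.247 CPM (-11.10 ± 0.801, SE, adjusted p = 3.56e-05). Sox2, its partner, which neural progenitors also use, stood at 145, 194 and 93.8 CPM and 116, 109 and 104 CPM, the stages overlapped, and it was the 1 member of that list that was not called (adjusted p = 0.396).

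Nanog itself was recorded unevenly, also in control ESCs (14.3 to 112 CPM) and duplication-deletion ESCs (4.52 to 118 CPM). In the deletion ESC libraries it stood at 8.75, 10.9 and 112 CPM, while Nanogpd stood at 94.8, 114 and 101 CPM. ESC 3 was far above the other libraries for Nanog and between them for Nanogpd, and the 2 entries overlap on chromosome 6 (mm9, 122657583 to 122663796 for Nanog and 122657586 to 122663796 for Nanogpd), so the authors' counting may have divided the reads of 1 locus between them. In NPCs Nanog stood at 0, 0.0569 and 0.176 CPM (-9.36 ± 1.45, SE, adjusted p = 0.00117) and Nanogpd at 0 in all 3 libraries. The Nanog promoter holds the paired octamer and Sox motifs through which Pou5f1 and Sox2 are known to act, both of which a search found within the 250 bases before the RefSeq start (GRCm38.p6, chr6:122707389-122707452, plus strand). The stretch is shown because Pou5f1 fell and Sox2 was not called; capitals mark TTTGCAT and ACAATG, 75 and 67 bases before the start.
Nanog: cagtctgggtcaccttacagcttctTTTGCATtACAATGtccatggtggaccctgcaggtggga

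Of the primed epiblast list, 7 of 17 tested members rose and 4 fell, with a median of 0.25. That median was 1.01 without ESC 1 and also without ESC 3, and -0.18 without NPC 3. Fgf5, the usual mark of the primed state, stood at 0.47, 1.23 and 0 CPM in ESCs and 0.42, 0.0569 and 0.212 CPM in NPCs and was not called. The stages overlapped for Fgf5. Otx2, a homeobox factor of the epiblast and later of forebrain and midbrain, rose from 23.1, 28.6 and 12.7 to 75.8, 94.1 and 106 CPM (2.11 ± 0.34, SE, adjusted p = 0.00147). Sall2, a zinc-finger factor, rose from 5.57, 3.31 and 5.32 to 95.7, 133 and 72 CPM. Grhl2, a factor of epithelial cells, fell from 32.8, 26.8 and 19.8 to 0.517, 1.54 and 0.953 CPM. T (brachyury), a factor of primitive streak and notochord, stood at 0.723, 0.584 and 0.367 CPM and then at 20.8, 23.8 and 20.8 CPM (5.21 ± 0.403, SE, adjusted p = 4.43e-05), with the 3 NPC libraries close together.

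**Figure D2:**
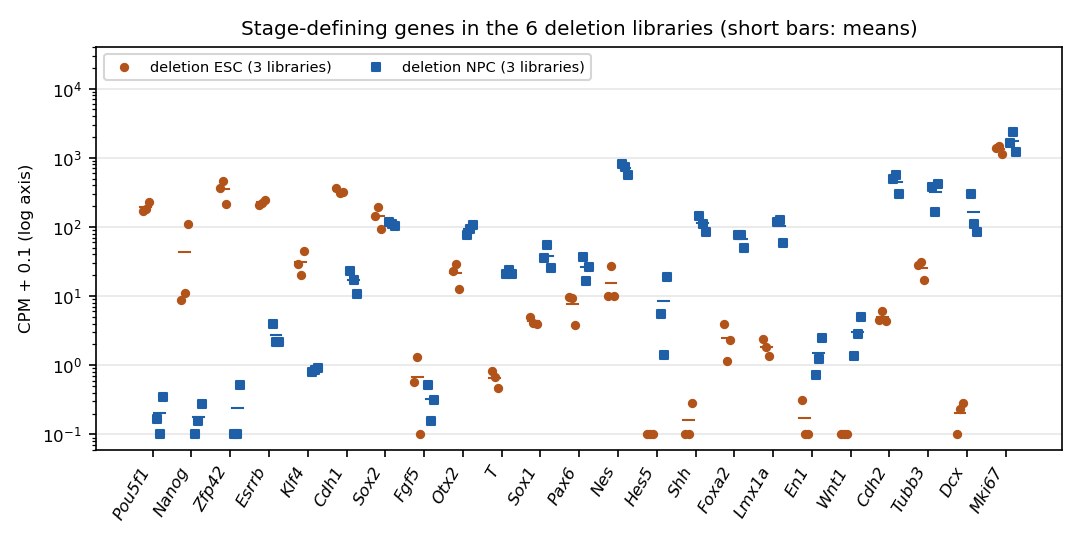
Level of 23 stage-defining genes in every deletion library (vertical axis: CPM plus 0.1, log axis; horizontal axis: genes). Circles are the 3 ESC libraries, squares the 3 NPC libraries and short bars their means; the stages overlap for Sox2, Fgf5 and Mki67 among the genes drawn.

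A small share of cells in ESC cultures is known to pass through a state that resembles the embryo at the 2-cell stage, marked by the Zscan4 cluster. All 16 tested genes of that state fell, and 13 of the 17 measured had no count in any NPC library. Zscan4c stood at 377, 238 and 112 CPM in ESCs and at 0 in all 3 NPC libraries, at least 13700-fold lower. Zscan4f stood at 559, 449 and 203 CPM and then at 0, 0 and 0.0353 CPM (adjusted p = 2.17e-05). Summed over the list, the ESC libraries held 1410, 966 and 483 CPM and the NPC libraries 0, 0.0759 and 0.141 CPM. ESC 3 was the lowest of its stage for the Zscan4 genes and for the sum. In bulk RNA, fewer cells in a state and less RNA per cell cannot be told apart, here and in every list below.

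Genes of the germ line that somatic cells silence with promoter DNA methylation formed another list. Of its 18 tested members 17 fell, with a median of -9.18 (-7.92 at the bound; fitted median -7.56 without NPC 3), and Tuba3a, a tubulin of testis, was not called. Mael, which protects germ cells from transposons, stood at 24.5, 36.3 and 37.4 CPM in ESCs and at 0 in every NPC library, at least 1490-fold lower (adjusted p = 3.66e-05). Hormad1, a protein of meiotic chromosome axes, stood at 31.6, 33 and 24 CPM and then at 0 throughout, at least 1510-fold lower. Mov10l1, a helicase that makes piRNA precursors, stood at 21.6, 20.4 and 38 CPM and at 0, 0 and 0.0353 CPM. Dppa3 (Stella), which protects maternal methylation in the zygote, stood at 14.6, 30.6 and 20.2 CPM and then at 0, 0 and 0.0353 CPM. In none of these 4 genes did the stages overlap. Over the same course the de novo methylation cofactor Dnmt3l went from 82.4, 43.2 and 48.6 to 0, 0 and 0.0706 CPM and Dnmt3b from 211, 169 and 81.5 to 9.47, 14 and 8.58 CPM.

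Promoters of this class are known for the E-box CACGTG, which Mga and Max bind in a repressive Polycomb complex. A search for CACGTG, which reads the same on both strands, found it within the 250 bases before a RefSeq start of 11 of the 21 list members with a promoter entry (52.4%). Over all 27025 genes in the table it was found for 1854 (6.86%), and 1978 of the 32851 promoter windows held it (6.02%). Among genes tested in the deletion transition the share was 9.91%, and among those called lower 10.7%. Some other lists were also above these shares, such as the Polycomb list (28.0%) and the cholesterol list (25.0%). All 11 members that held it were called lower, and so were 5 of the 6 tested members that did not hold it. The stretches around it are shown for 4 list members, and for Stag3 and 1700001L05Rik, which return below and were chosen for display after their values were seen. For the other genes whose change differed by genotype the motif is not given. A link between CACGTG and those differences was not tested. They are from GRCm38.p6, 5′ to 3′ on the gene's strand, with CACGTG in capitals: Stag3 chr5:138280314-138280369 (plus), 1700001L05Rik chr15:83367411-83367512 (minus), Mael chr1:166238937-166238992 (minus), Hormad1 chr3:95559595-95559676 (plus), Sycp3 chr10:88459498-88459574 (plus) and Stk31 chr6:49395459-49395514 (plus).
Stag3: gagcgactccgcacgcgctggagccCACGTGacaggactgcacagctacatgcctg
1700001L05Rik: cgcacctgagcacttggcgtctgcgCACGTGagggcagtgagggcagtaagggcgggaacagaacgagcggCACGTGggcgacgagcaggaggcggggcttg
Mael: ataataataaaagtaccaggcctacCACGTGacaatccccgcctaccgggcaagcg
Hormad1: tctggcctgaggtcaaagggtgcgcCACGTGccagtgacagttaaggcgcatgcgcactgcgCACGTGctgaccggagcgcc
Sycp3: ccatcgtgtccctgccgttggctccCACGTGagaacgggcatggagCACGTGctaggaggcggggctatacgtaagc
Stk31: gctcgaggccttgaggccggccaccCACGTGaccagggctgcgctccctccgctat

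Neural progenitor genes moved the other way: 23 of 27 tested members rose, none fell, and the median was 4.29. Sox1, the earliest definitive neural Sox factor, rose from 4.88, 3.93 and 3.85 to 35.4, 53.9 and 25.4 CPM (3.19 ± 0.365, SE, adjusted p = 0.000241). Nestin (Nes), the intermediate filament of progenitors, rose from 9.98, 26.9 and 9.91 to 826, 744 and 555 CPM (5.51 ± 0.519, SE, adjusted p = 9.24e-05). For both genes every NPC library was above every ESC library. Sox21, a repressor that tilts progenitors towards differentiation, rose from 0.542, 0.389 and 0.918 to 26.4, 32.1 and 29.5 CPM. Pax6, which marks dorsal and forebrain progenitors, rose from 9.69, 9.38 and 3.67 to 36.1, 16.3 and 26.6 CPM (1.80 ± 0.451, SE, adjusted p = 0.0127), and without NPC 1 its adjusted p was 0.0596. The 4 members that were not called were Sox2, Msi2, Slc1a3 and Cspg5. Summed over the progenitor markers Sox1, Pax6, Nes, Vim, Hes5 and Fabp7, the ESC libraries held 144, 123 and 87.5 CPM and the NPC libraries 1940, 1740 and 1530 CPM. The 6 naive markers measured went from 655, 765 and 691 to 4.94, 9.62 and 4.38 CPM, so that both labelled stages carried their own markers in every library.

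Proneural factors start neurogenesis, and Notch signalling holds neighbouring cells back as progenitors. In that list 23 of 29 tested members rose and 1, the inhibitor Id1, fell (none without ESC 1, ESC 3, NPC 1 or NPC 3). Neurog2, the proneural factor of ventral midbrain progenitors, had no count in ESCs and stood at 106, 56.2 and 57.7 CPM in NPCs, at least 1660-fold higher. Neurod4, which acts after it, had none and then stood at 106, 44.2 and 41.1 CPM, at least 1500-fold higher. Both were highest in NPC 1. On the Notch side Hey1, a target of the receptor, rose from 1.34, 0.584 and 0.734 to 28.8, 22.8 and 32.2 CPM and Nrarp, a feedback inhibitor, from 1.88, 1.85 and 4.4 to 86.1, 37.1 and 72.8 CPM. Hes5, the main Notch target of neural stem cells, had no count in ESCs and stood at 5.47, 1.29 and 18.6 CPM in NPCs, lowest in NPC 3.

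Of 8 tested host genes of microRNAs, 3 rose and none fell (1 without ESC 3). C130071C03Rik rose from 0.145, 0 and 0 to 18.6, 4.55 and 3.56 CPM (7.12 ± 1.17, SE, adjusted p = 0.00163). By RefSeq coordinates the mature miR-9 lies within this gene (GRCm38.p6, chr13:83738821-83738843, plus strand). It is a microRNA of neural progenitors, shown because the libraries counted its host and not the mature form; its seed is in capitals.
mmu-miR-9-5p: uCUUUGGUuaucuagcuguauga
The others were 2610100L16Rik, at 0 in ESCs and 24.2, 6.68 and 13.9 CPM in NPCs, and 2810055G20Rik, at 0 and then 26, 23.7 and 15.9 CPM. Mirg, Rian, Mir17hg, Dleu2 and 2210403K04Rik were not called.

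Floor plate genes were on in all 3 NPC libraries. Of 23 tested genes of the midbrain floor plate 20 rose and none fell, with a median of 5.81 (5.59 at the bound; fitted median 6.53 without ESC 1). Shh, the ligand that the floor plate secretes, stood at 0, 0 and 0.184 CPM in ESCs, where it had 1 count in all, and at 143, 112 and 84.1 CPM in NPCs, a ratio of 7670 (95% counting interval 1380 to 303000). Lmx1a, the homeobox factor that specifies dopaminergic progenitors, rose from 2.28, 1.72 and 1.28 to 119, 127 and 59.3 CPM (5.81 ± 0.421, SE, adjusted p = 3.58e-05). NPC 5 was the lowest NPC library for both. Foxa1, a forkhead factor of floor plate and endoderm, rose from 0.687, 0.389 and 0.734 to 57.3, 48.8 and 27.6 CPM. Its relative Foxa2, which Shh induces and which maintains the floor plate, rose from 3.83, 1.04 and 2.2 to 76.5, 76.4 and 49.7 CPM (4.86 ± 0.501, SE, adjusted p = 0.00014). Spon1, a matrix protein of the floor plate, rose from 2.39, 1.75 and 2.2 to 116, 91.2 and 74.9 CPM. Of the hedgehog pathway 9 of 17 tested members rose and 1, the effector Gli2, fell. The ventral targets Nkx2-2 and Nkx6-1 had no count in ESCs and stood at 11.1, 5.88 and 8.86 CPM and 4.16, 6.68 and 9.35 CPM in NPCs.

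Of 12 tested dopaminergic genes 7 rose and 1 fell (Ddc, the decarboxylase that makes dopamine, whose call was lost without ESC 1, ESC 3, NPC 1 or NPC 3). Progenitor factors of that list were among the risers: Lmx1b went from 0.289, 0.227 and 0.184 to 4.16, 9.47 and 3 CPM and Gfra1, a receptor of the survival factor GDNF, from 1.3, 1.3 and 0.734 to 35.2, 16.7 and 12.1 CPM. The isthmic organiser, which patterns midbrain and hindbrain, was split: 5 of 15 tested members rose and 6 fell. Without ESC 2 or without NPC 3 the higher count was 3. En1, its homeobox factor, stood at 0.217, 0 and 0 CPM and then at 0.613, 1.14 and 2.4 CPM (3.92 ± 1.27, SE, adjusted p = 0.0379). Without any 1 of the libraries other than ESC 1 its call was lost (adjusted p 0.0562 to 0.13). Wnt1, the ligand of the organiser, had no count in ESCs and stood at 1.28, 2.73 and 4.83 CPM in NPCs, at least 53.6-fold higher. Gbx2, which sets the hindbrain side of the organiser and is also an ESC gene, fell from 40.8, 16.4 and 8.07 to 0.242, 0.114 and 0.459 CPM. Etv5, a target of FGF signalling, fell from 137, 121 and 148 to 3.89, 15 and 6.71 CPM.

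Genes of neighbouring regions were also measured. Of 16 tested forebrain genes 11 rose and none fell (1 without NPC 3; median 7.51, 6.73 at the bound). Fezf1, a factor of the anterior forebrain, had no count in ESCs and stood at 7.23, 20.1 and 14.5 CPM in NPCs, at least 286-fold higher. Fezf2 stood at 0.217, 0 and 0.184 CPM and then at 9.47, 35 and 14.2 CPM, highest in NPC 3. Emx2, of the dorsal telencephalon, had no count in ESCs and stood at 13.1, 18.6 and 4.13 CPM in NPCs.

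**Figure D3:**
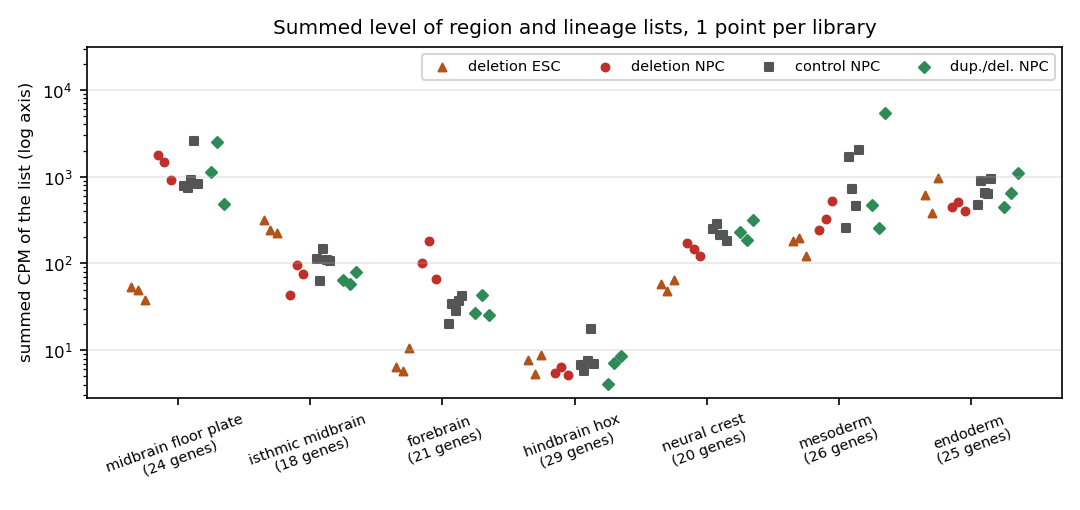
Summed CPM of 7 region and lineage lists (vertical axis, log axis; number of genes in brackets), 1 point per library, for deletion ESCs and for the NPCs of the 3 genotypes. The forebrain sum was 66.4 to 181 CPM in the 3 deletion NPC libraries and 20.2 to 42 CPM in the 5 control NPC libraries.

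Markers of cells that a differentiating culture could also hold were followed beside these lists. Of the fibroblast list 7 of 13 tested members rose, 1 fell and 5 were not called. Col3a1, a fibrillar collagen, stood at 0.289, 0.616 and 0.551 CPM and then at 140, 75.8 and 36 CPM. Postn, a matrix protein, stood at 0.398, 1.65 and 0.734 and then 160, 190 and 126 CPM. Summed over Col1a1, Col3a1, Dcn and Lum, the libraries went from 0.579, 0.616 and 4.04 to 154, 103 and 49.3 CPM. The NPC sum was mostly Col3a1 and was highest in NPC 1. Col3a1, Dcn and Lum were called higher, while Col1a1 was not called (edgeR adjusted p = 0.273) and its stages overlapped. The part of fibroblast-like cells in the results above was not tested. For mesoderm (T, Mesp1, Tbx6) the sum went from 0.868, 0.584 and 0.734 to 21, 23.9 and 21 CPM, nearly all of it from T. Of the mesoderm list 7 of 18 rose and 6 fell; Acta2, smooth muscle actin, went from 7.02, 9.34 and 31 to 171, 240 and 392 CPM. Endoderm genes fell in 12 of 19 cases and rose in 3, the risers being Foxa1, Foxa2 and Cxcr4, which floor plate or neural cells also express. The defining endoderm genes Sox17, Gata4 and Gata6 together went from 28.8, 16.6 and 28.3 to 0.226, 0.342 and 0.565 CPM. The neural crest markers Sox10, Tfap2a and Tfap2b summed to 0.615, 0.13 and 2.75 and then 1.05, 1.16 and 3.25 CPM. Of these Tfap2b rose, from no count to 0.807, 0.493 and 2.82 CPM (edgeR adjusted p = 0.00886). Tfap2a was not called and Sox10 was not among the genes tested. Of 17 tested neural crest genes 7 rose and 2 fell. Of 15 tested trophoblast genes 6 fell (3 without ESC 3) and none rose (1 without NPC 3). Of 12 epidermal genes 4 fell, none rose, and Krt5 had no count in NPCs. Of 9 tested endothelial and blood genes 3 rose (1 without ESC 1, ESC 2, ESC 3, NPC 1 or NPC 5) and 2 fell (4 without NPC 5). Pecam1, an endothelial adhesion protein that ESCs also express, fell from 69, 68.5 and 108 to 0.42, 0.114 and 0.423 CPM, and the angiopoietin receptor Tek from 10.1, 14.4 and 9.73 to 0.694, 0.721 and 0.918 CPM. The VEGF receptor Kdr rose from 1.95, 0.422 and 1.65 to 5.42, 11.7 and 2.29 CPM (adjusted p = 0.041). Tal1, a factor of blood and endothelial precursors that some ventral neurons also use, rose from 0.398, 0.0324 and 0 to 3.62, 0.759 and 2.36 CPM (adjusted p = 0.0289, and 0.0571 to 0.112 without ESC 2, ESC 3, NPC 1 or NPC 5). Hba-x, an embryonic globin, rose from no count to 0.355, 0.266 and 1.84 CPM (adjusted p = 0.0204, but 0.0575 without ESC 1 and 0.0827 without NPC 5). The part of such cells in the results above was not tested.

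Neuronal genes were already on in the NPC libraries. Of 24 tested pan-neuronal members 17 rose and 1 fell. Dcx, a microtubule protein of newborn neurons, stood at 0, 0.13 and 0.184 CPM in ESCs and at 300, 112 and 84.5 CPM in NPCs (10.99 ± 0.902, SE, adjusted p = 5.2e-05). Mtap2, a dendritic microtubule protein, rose from 14.1, 13.4 and 11.2 to 962, 454 and 275 CPM. NPC 1 was the highest library for both. Tubb3, neuronal tubulin, rose from 28.4, 31.1 and 17.1 to 384, 165 and 424 CPM, lowest in NPC 3 (3.69 ± 0.449, SE, adjusted p = 0.000325). The 1 member that fell was Stmn2, a neuronal growth protein, which went from 144, 140 and 129 to 51.7, 11.4 and 15.6 CPM and was named after its value was seen. Axon guidance genes rose in 34 of 39 cases and none fell, with a median of 3.62. Slit2, a midline repellent, rose from 2.82, 2.08 and 2.94 to 283, 334 and 112 CPM. Its counterpart Ntn1, the midline attractant, rose from 13.8, 8.27 and 7.89 to 378, 293 and 207 CPM. The ephrin Efnb1 rose from 1.23, 1.2 and 0.918 to 29.3, 35.1 and 26.4 CPM and the receptor Epha7 from 5.21, 4.87 and 6.61 to 182, 202 and 91.1 CPM. Among glial genes 4 of 13 rose and 3 fell; Slc1a2, the glutamate transporter of radial glia and astrocytes, went from 0.0362, 0.227 and 0.184 to 260, 122 and 74.7 CPM.

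**Figure D4:**
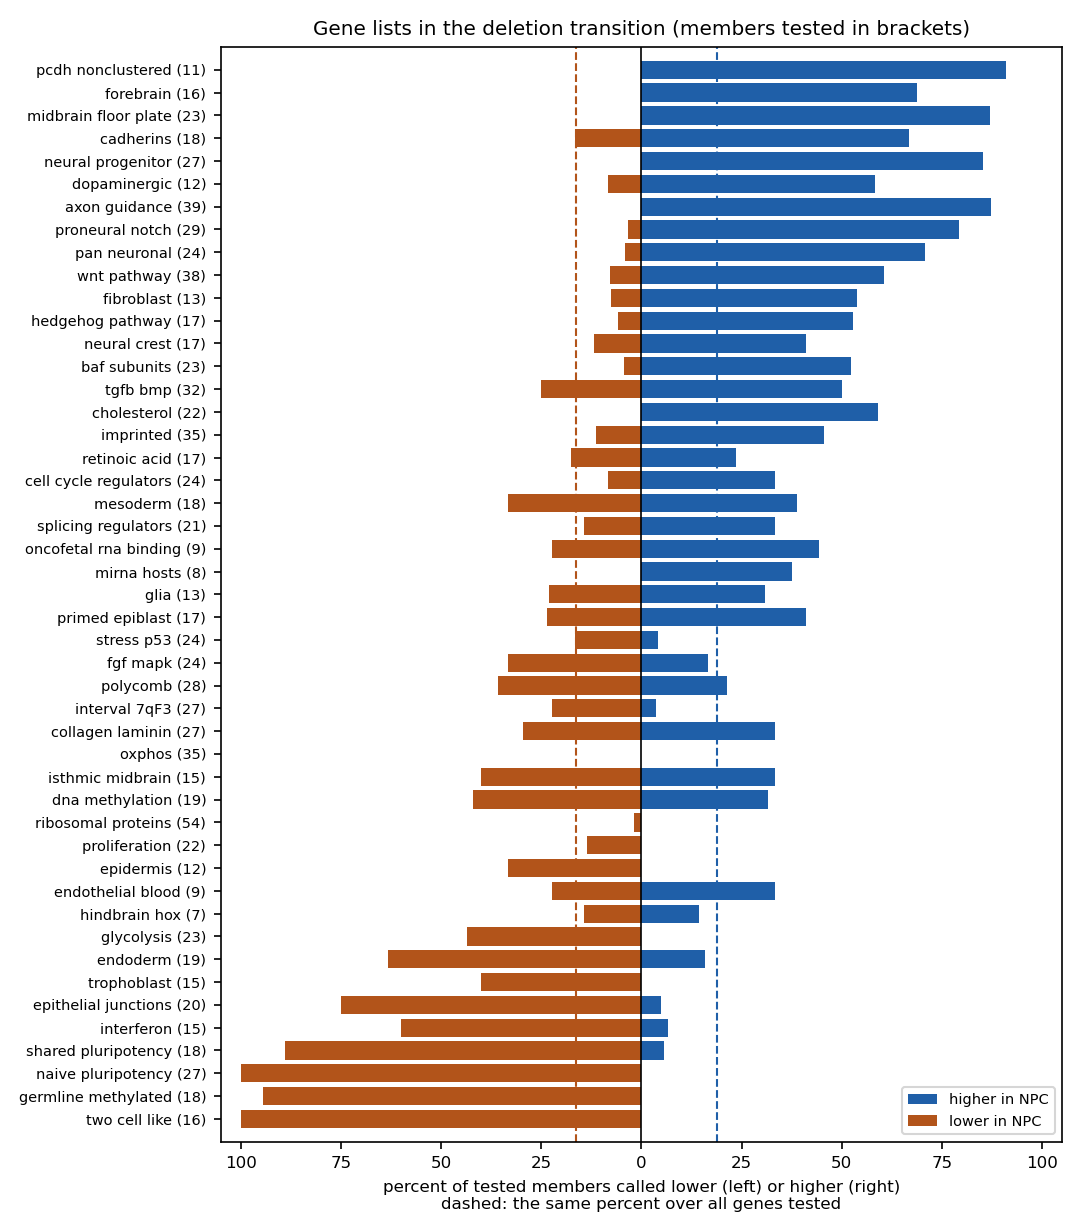
Percent of the tested members of each of the 47 lists that were called lower (left, orange) or higher (right, blue) in the deletion transition, ordered by median log2 fold change. Dashed lines are the shares over all genes tested, 16.3% lower and 18.9% higher; the naive pluripotency and 2-cell lists reach 100% on the lower side.

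Signalling genes were ordered by role. Wnt ligands, receptors and targets rose in 23 of 38 cases and 3 fell (1 without ESC 1, ESC 3 or NPC 1). Wnt5a, a ligand of the floor plate, rose from 1.88, 1.82 and 2.75 to 96.7, 56 and 37.4 CPM, and the agonist Rspo2 had no count in ESCs and stood at 23.8, 16.7 and 13 CPM in NPCs. The receptor Fzd3 rose from 45.2, 44.7 and 29.7 to 920, 632 and 569 CPM. Nkd1, a feedback target of the pathway, rose from 0.687, 1.14 and 1.1 to 40.2, 56.5 and 47.1 CPM (5.67 ± 0.376, SE, adjusted p = 2.68e-05). Of the FGF signalling list 4 of 24 tested members rose (16.7%) and 8 fell (33.3%). The share higher was below the 18.9% over all genes tested. Fgf4, the ligand that ESCs make for themselves, stood at 90.6, 115 and 144 CPM and then at 0, 0 and 0.247 CPM, and the feedback inhibitor Spry4 fell from 146, 51.8 and 37.6 to 0.42, 2.83 and 1.16 CPM. The receptor Fgfr2 rose from 12.8, 10 and 6.06 to 139, 160 and 152 CPM. Of the TGF-beta and BMP family 16 of 32 rose (10 without ESC 1, ESC 2 or NPC 3) and 8 fell. Those that fell included the Nodal branch of pluripotent cells: the ligand Nodal went from 14, 16.6 and 20.6 to 0.0646, 0 and 0.106 CPM, its coreceptor Tdgf1 from 624, 694 and 651 to 0, 0.152 and 0.459 CPM and its inhibitor Lefty2 from 72.1, 158 and 27.9 to 0, 0 and 0.0353 CPM. Retinoic acid genes rose in 4 of 17 cases (2 without ESC 1 or ESC 2) and fell in 3. These shares, 23.5% and 17.6%, were near the 18.9% and 16.3% over all genes tested. The carrier Crabp2 rose from 2.71, 2.5 and 2.39 to 57.1, 63.1 and 105 CPM. The receptor Rarg fell from 88.3, 65.6 and 46.2 to 2.89, 2.94 and 4.41 CPM.

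Adhesion genes exchanged members. Cdh1, E-cadherin of epithelia and ESCs, fell from 370, 308 and 322 to 23, 17.1 and 10.6 CPM (-4.27 ± 0.367, SE, adjusted p = 6.06e-05). Cdh2, N-cadherin of neural cells, rose from 4.34, 6 and 4.22 to 489, 563 and 303 CPM (6.54 ± 0.407, SE, adjusted p = 2.2e-05). Neither gene's stages overlapped. Of 18 tested cadherins 12 rose and 3 fell (Cdh1, Cdh3 and Cdh15). Tight junction and desmosome genes fell in 15 of 20 cases: Epcam went from 114, 129 and 80.4 to 1.21, 2.41 and 1.31 CPM and Dsg2, a desmosomal cadherin, from 69.1, 29.8 and 60.7 to 0.452, 0.949 and 0.635 CPM. Esrp1, the splicing factor that keeps epithelial isoforms, fell from 23.6, 14 and 19.8 to 0.161, 0.493 and 0.282 CPM. Non-clustered protocadherins, adhesion proteins with restricted patterns in the brain and of the family named in the study's title, rose in 10 of 11 cases, with a median of 7.72 (5.39 at the bound; fitted median 8.52 without ESC 3). Pcdh18 rose from 0.217, 0.195 and 2.2 to 85, 129 and 101 CPM and Pcdh7 from 0.0362, 0.13 and 1.28 to 53.3, 110 and 48.9 CPM, and ESC 3 was the highest ESC library for both. Pcdh9 stood at 0, 0.0973 and 0.184 CPM and then at 46.2, 8.48 and 17.5 CPM, and Pcdh1 was the 1 tested member not called. Matrix genes were mixed (9 of 27 higher, 8 lower): the cartilage-type collagen Col11a1 rose from 2.93, 3.34 and 3.67 to 63.4, 113 and 49.2 CPM, and the basement membrane protein Nid2 fell from 156, 96.1 and 194 to 19.5, 18.5 and 7.13 CPM.

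Lists of chromatin and RNA regulators are read beside 18.9% higher and 16.3% lower over all genes tested. The Polycomb share higher, 21.4%, was near the former. The shares lower of the BAF remodelling list, 4.35%, and of the splicing regulators, 14.3%, were below the latter. Of 19 genes of DNA methylation 8 fell and 6 rose (3 without NPC 1). Tet1, the dioxygenase that oxidises methylcytosine in ESCs, fell from 1860, 1030 and 1230 to 62.7, 87.1 and 46.3 CPM (-4.37 ± 0.41, SE, adjusted p = 9.19e-05), and Zfp57, which guards imprints, fell from 266, 250 and 162 to 59.5, 50.3 and 34.1 CPM. The maintenance enzyme Dnmt1 was not called. BAF remodelling subunits rose in 12 of 23 cases and 1 fell. Actl6b, the subunit of neurons, had no count in ESCs and stood at 6.65, 1.65 and 1.66 CPM in NPCs, while the ATPase Smarca2 rose from 3.91, 4.45 and 3.67 to 36.3, 46.7 and 23.8 CPM. Polycomb genes rose in 6 of 28 cases and fell in 10 (6 without NPC 1). Within the complex that holds 1 of several CBX proteins, Cbx7, the ESC form, fell from 54.8, 55.5 and 78.9 to 0.888, 0.323 and 2.19 CPM and Cbx2 rose from 10.8, 10.7 and 11.6 to 44.2, 52 and 55.1 CPM. The RING partner Bmi1 rose from 7.92, 7.4 and 6.24 to 104, 56.4 and 64.9 CPM. Of the let-7 axis, Trim71 fell from 210, 89.4 and 109 to 13.3, 17.1 and 26.3 CPM and Hmga2, a let-7 target, rose from 5.28, 6.98 and 8.26 to 40.9, 68 and 137 CPM. Lin28a, an inhibitor of let-7 maturation, stood at 193, 177 and 108 and then 49.5, 31.8 and 104 CPM (adjusted p = 0.0435) and its paralogue Lin28b at 119, 111 and 31.7 and then 252, 269 and 246 CPM (adjusted p = 0.023). They lay on opposite sides of 0, and both calls were lost without NPC 1 (0.121 and 0.0646) or NPC 3 (0.0999 and 0.062), Lin28a's also without ESC 1 (0.128) or ESC 2 (0.111). Among splicing regulators Nova1, of neurons, rose from 10.6, 5.81 and 2.75 to 203, 91.2 and 58.4 CPM, in a list of 21 with 7 higher and 3 lower.

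Of 22 proliferation genes 3 fell (Ccnb2, Bub1 and Bub1b) and none rose. The share lower, 13.6%, was below the 16.3% over all genes tested. Leaving out 1 library gave 1 to 5 falls, and leaving out ESC 3 and NPC 5 gave 10. Bub1 and Bub1b each lost the call without ESC 1, ESC 2, NPC 1 or NPC 3 (adjusted p 0.0743 to 0.0942 and 0.0921 to 0.143). Mki67, the mark of cycling cells, stood at 1400, 1500 and 1150 CPM and 1640, 2390 and 1220 CPM, with overlap, and was not called. Among cell cycle regulators the G1 cyclin Ccnd2 rose from 13.2, 4.8 and 9.18 to 228, 378 and 520 CPM and Ccne1 fell from 151, 148 and 92.5 to 13.8, 19.9 and 31.1 CPM. Glycolysis fell in 10 of 23 cases and none rose (1 without ESC 3), with a median of -1.01. Slc2a3, a glucose transporter, fell from 452, 445 and 741 to 10.4, 18.1 and 22.3 CPM (-4.99 ± 0.433, SE, adjusted p = 6.25e-05). The rate-limiting Pfkp fell from 159, 172 and 220 to 5.86, 13.3 and 6.07 CPM, and Hk2, which traps glucose in the cell, from 145, 108 and 171 to 12.5, 32.4 and 25.5 CPM. Cholesterol synthesis rose in 13 of 22 cases (7 without ESC 1) and none fell: Hsd17b7 went from 7.7, 7.66 and 12.8 to 47.9, 44.6 and 36.8 CPM and Nsdhl from 15.6, 15.4 and 10.5 to 49.9, 34.4 and 39.3 CPM. None of 35 genes of oxidative phosphorylation was called by edgeR (1 without NPC 5, 3 without ESC 3 and NPC 5), and their median was -0.09. Nor did any have an unadjusted p below 0.05, and DESeq2 and limma-voom called 0 as well. Of 54 ribosomal protein genes 1 was called lower, Rpl4 (lost without ESC 1, ESC 2, NPC 1 or NPC 3, adjusted p 0.0821 to 0.123), but 19 were without NPC 5 and 26 without both ESC 3 and NPC 5. Their summed level was 22400, 28000 and 24900 CPM in ESCs and 12200, 15100 and 24800 CPM in NPCs, so that NPC 5 lay among the ESC libraries.

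Imprinted genes, expressed from 1 parental copy, rose in 16 of 35 cases and fell in 4. Mest, of the paternal copy, rose from 87.8, 64.1 and 36 to 1430, 2220 and 1460 CPM (4.79 ± 0.453, SE, adjusted p = 9.4e-05), and Plagl1, a regulator of the imprinted network, rose from 5.68, 5.35 and 5.87 to 74.4, 200 and 155 CPM. Ndn, a growth regulator of neurons, rose from 3.94, 3.86 and 3.67 to 62.4, 50.6 and 40.2 CPM and Usp29 from 10.3, 10.5 and 13.9 to 153, 165 and 76.5 CPM. Interferon-response genes fell in 9 of 15 cases and 1 rose (none with any 1 library left out): Ifitm1, also an ESC surface gene, fell from 121, 165 and 59.3 to 2.66, 2.58 and 3.95 CPM and the RNA sensor Ddx58 from 58.8, 43.4 and 16.1 to 2.91, 3.61 and 2.47 CPM.

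Of the 27 tested genes of the 7qF3 interval, each present in 1 copy at both stages, 6 fell and 1 rose, with a median of -0.01 (0.35 when scaled by library size alone). That was 22.2% lower and 3.7% higher, beside 16.3% and 18.9% over all genes tested. Aldoa, the glycolytic aldolase, fell from 272, 349 and 557 to 55, 103 and 92.1 CPM (-2.21 ± 0.381, SE, adjusted p = 0.00206). Mylpf, a muscle myosin light chain, fell from 10.3, 11.7 and 12.1 to 0.42, 0.626 and 0.388 CPM and Sept1, a septin, from 26.2, 33.6 and 20 to 0.872, 1.1 and 2.44 CPM. Spn, a surface protein of blood cells, stood at 8.82, 3.21 and 6.24 CPM and then at 0, 0 and 0.0353 CPM. Maz, a zinc-finger factor, went from 25, 17.2 and 14.9 to 32.2, 34.2 and 43.2 CPM (0.96 ± 0.3, SE, adjusted p = 0.0329), and its call was lost without any 1 of the libraries other than ESC 1 (adjusted p 0.0658 to 0.106). The kinase genes Mapk3, at 5.1, 13.3 and 16.3 and then 8.22, 6.02 and 16.2 CPM, and Taok2, at 14.7, 13 and 21.1 and then 22.8, 22 and 34.6 CPM, were not called. Neither was Kctd13, at 10.2, 15 and 5.87 and then 5.39, 7.82 and 2.86 CPM, an adaptor of a ubiquitin ligase, nor the phosphatase subunit Ppp4c, at 17.3, 21.8 and 14.1 and then 16.8, 26.9 and 40 CPM.

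The same course in control cells called 7487 of 17148 genes (43.7%) and in duplication-deletion cells 5128 of 16583 (30.9%). These comparisons share no library with the deletion course. Of the deletion calls tested in both, 4985 were called the same way in control cells, which is 89.5% of the deletion calls and 69.8% of the control calls, and none was called the opposite way. With duplication-deletion cells 4130 were shared, 75.1% and 84.5% of the respective calls, and 1 was opposite. The deletion course rests on 6 libraries and the control course on 8, and whether the number of calls differs between genotypes was not tested. Whether a gene's change differed by genotype was tested as an interaction over all 20 libraries. Libraries with the same replicate number deviated together across genotypes, in all 9 ESC pairs and in 5 of 7 NPC pairs (correlation above 0.1). Among pairs with different numbers 2 of 18 in ESCs and 8 of 32 in NPCs also passed 0.1. The interactions are therefore also given with the number as a term, once over both stages as planned and once within each stage, the latter chosen after seeing the data.

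Against control cells 2 of 18590 genes differed (0.0108%), both lower in deletion cells, and 527 had an unadjusted p below 0.05 (2.83%). 1700001L05Rik, an uncharacterised gene (chromosome 15, 83184277 to 83197727 in mm9), stood at 82.3, 53.1 and 57.6 CPM in deletion ESCs and at 0.565, 0.304 and 0.565 CPM in deletion NPCs. Its mean in the control groups was 60.6 ± 6.9 CPM in ESCs (SD, n = 3) and 3.48 ± 1.01 CPM in NPCs (SD, n = 5). ESC levels overlapped across genotypes, and all 3 deletion NPC libraries lay below all 8 other NPC libraries. The fall was larger in deletion cells by -2.95 ± 0.414 on the log2 scale (SE, edgeR adjusted p = 0.00891). Rnf17, a tudor-domain gene of the germ line (chromosome 14, 57021534 to 57143868 in mm9), stood at 139, 149 and 108 CPM in deletion ESCs and 0.129, 0.19 and 0.6 CPM in deletion NPCs, against 12.7 ± 2.73 CPM in control NPCs (SD, n = 5). The difference was -5.80 ± 0.819 (SE, edgeR adjusted p = 0.00891). The duplication-deletion NPC libraries, at 2.78, 0.665 and 0.173 CPM, overlapped the deletion libraries for Rnf17. Without NPC 1 of the deletion group neither gene passed (adjusted p 0.0516 and 0.0818), nor without NPC 3 (0.0517 and 0.0627). Leaving out ESC replicate 3 and NPC replicate 5 of every genotype also ended the call of 1700001L05Rik (edgeR adjusted p = 0.145). With replicate number as a term 7 genes differed, all lower in deletion cells, and 9 with the number within each stage, also all lower. 1700001L05Rik and Rnf17 were among them in both fits (adjusted p 0.0115 and 0.0145, then 0.0258 and 0.0311). Called in both of these fits but not without the term were Fmr1nb (difference -7.78 ± 0.788, SE, edgeR adjusted p = 0.000921, against 0.298 without the term), the germ-cell gene Tex15 (-2.39 ± 0.349, SE, edgeR adjusted p = 0.0234), Rbm46, an RNA-binding gene of the germ line (-6.59 ± 1.01, SE, edgeR adjusted p = 0.0276), and the clustered protocadherin Pcdhgb2 (-2.81 ± 0.424, SE, edgeR adjusted p = 0.0276). Zfp709 was called with the number over both stages only, and Dnahc8, Gm14403 and Stag3 with the number within each stage only. These genes were named after their values were seen. DESeq2 called 27 genes for this difference and limma-voom 1; with limma-voom 1700001L05Rik did not pass (adjusted p = 0.449).

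Against duplication-deletion cells 3 of 18590 genes differed (0.0161%), again all lower in deletion cells, with 564 below an unadjusted 0.05 (3.03%). 1700001L05Rik differed by -3.46 ± 0.431 (SE, edgeR adjusted p = 0.00293), with a mean of 4.69 ± 1.13 CPM in duplication-deletion NPCs (SD, n = 3). 2210016F16Rik, an uncharacterised gene (chromosome 13, 58481407 to 58486586 in mm9), stood at 25.2, 23.4 and 16.1 CPM in deletion ESCs and 0.517, 0.55 and 1.02 CPM in deletion NPCs, and at 4.71, 8.67 and 10.6 CPM in duplication-deletion NPCs. The difference was -3.20 ± 0.511 (SE, edgeR adjusted p = 0.0319). The control NPC libraries lay between 3.11 and 6.03 CPM for 2210016F16Rik, but its difference from control cells was not called. Zim1, an imprinted zinc-finger gene (chromosome 7, 6628154 to 6649143 in mm9), went in deletion cells from 1.27, 1.33 and 1.65 to 0.775, 0.797 and 0.882 CPM, and was not called there. It stood at 25.5, 22.6 and 15.7 CPM in duplication-deletion NPCs, and the difference was -4.62 ± 0.712 (SE, edgeR adjusted p = 0.03). The control NPC libraries lay between 0.295 and 1.32 CPM for Zim1, around the deletion libraries, so that the libraries apart were the duplication-deletion ones. Leaving out 1 of 4 deletion libraries ended the call of 2210016F16Rik (ESC 1, ESC 2, NPC 1, NPC 3) and of Zim1 (ESC 2, ESC 3, NPC 1, NPC 3) (adjusted p 0.0853 to 0.121 and 0.0559 to 0.0891). Without ESC replicate 3 and NPC replicate 5 of every genotype neither 2210016F16Rik nor Zim1 passed (edgeR adjusted p = 0.155 and 0.3). In a fit of the 4 groups compared, 2210016F16Rik did not pass either (edgeR adjusted p = 0.222). With replicate number as a term 7 genes differed (6 lower, 1 higher), and 11 with the number within each stage (8 lower, 3 higher). 1700001L05Rik passed in both (adjusted p 0.00426 and 0.0146). 2210016F16Rik missed the threshold in the first (0.0543) and passed in the second (0.0456), while Zim1 passed in the first (0.032) and missed in the second (0.0737). Fmr1nb (-7.92 ± 0.813, SE, edgeR adjusted p = 0.00109 in the first), Rbm46, AK029792 and, as the 1 gene higher in both, the imprinted Nnat (3.17 ± 0.447, SE, edgeR adjusted p = 0.0151) were called in both fits and not without the term, and were named after their values were seen. DESeq2 called 33 genes for this difference and limma-voom none.

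**Figure D5:**
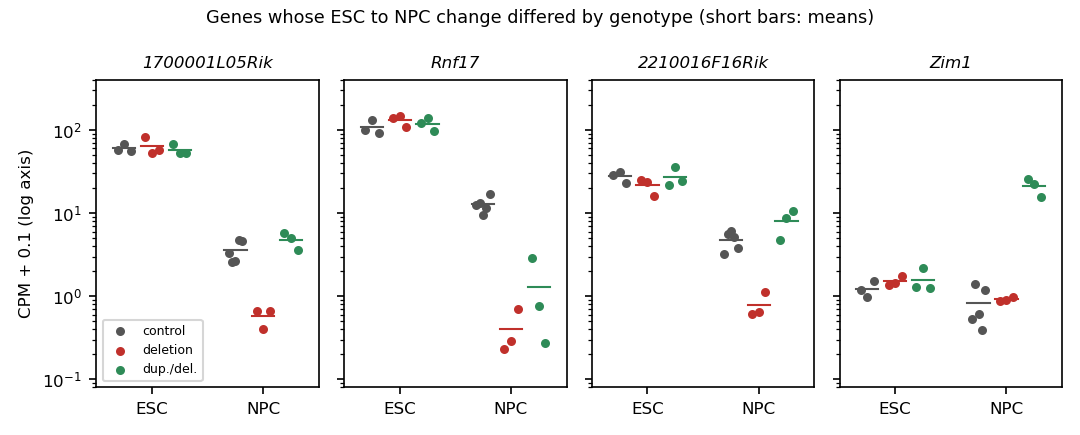
Level of the 4 genes whose change differed by genotype without replicate number as a term, in every ESC and NPC library (vertical axis: CPM plus 0.1, log axis), with controls in grey, deletion in red and duplication-deletion in green, and short bars at group means. Deletion NPCs lie below the other NPCs for 1700001L05Rik and 2210016F16Rik, and duplication-deletion NPCs lie above the others for Zim1.

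Stag3, a meiotic cohesin subunit, was chosen after these values were seen, and without replicate number as a term its test of a difference did not pass in either comparison (edgeR adjusted p = 0.298 against control and 0.11 against duplication-deletion cells). With the number within each stage it passed in both (0.0311 and 0.0146), and with the number over both stages in neither (0.0967 and 0.0543). It stood at 86.1, 84.6 and 98 CPM in deletion ESCs and at 3.16, 4.72 and 1.48 CPM in deletion NPCs, below the 10.9 to 22.9 CPM of the control NPCs and the 13 to 23.8 CPM of the duplication-deletion NPCs. Over the 22 tested members of the germ-line list the median difference from control cells was -0.17, beside 0.09 over all genes, and none was called. With replicate number as a term none of its members was called either. The imprinted list held called members in the interactions, Zim1 and with the number as a term Nnat, and the list of splicing regulators held 1, Khdrbs3, with the number within each stage. The forebrain list had a median difference from control cells of 2.76, and 4 of its 20 members had an unadjusted p below 0.05, but none passed the adjustment. Many of its members were at or near 0 counts in ESCs, where the fitted difference depends on the prior count. The neural crest list had a median difference of -1.54, with 3 of 20 below 0.05 unadjusted and none called, and its summed NPC level was 174, 148 and 122 CPM in deletion cells and 183 to 281 CPM in control cells. T stood at 20.8, 23.8 and 20.8 CPM in deletion NPCs and at 7.92 ± 4.63 CPM in control NPCs (SD, n = 5), and its interaction was not called. In duplication-deletion NPCs T stood between 6.73 and 61.4 CPM (25.0 ± 31.5, SD, n = 3), around the deletion libraries.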

How the data were processed

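Total RNA was sequenced from stranded libraries, paired-end, per the labels' protocols. The deposited table holds expected counts per gene, per the submitters' processing notes from RSEM 1.3.0 after alignment by the authors to mm9 with STAR 2.6.0c (the notes also name DESeq2 1.22.2, in a role they do not give). Expected counts were rounded to whole numbers, and 92 spike-in entries of 29968 were left out; 5778 entries were not whole in every library. Gene positions in mm9 were copied from the authors' deposited table. The deletion transition was fitted on its 6 libraries with edgeR 4.0.16 (TMM scaling, filterByExpr by group, robust quasi-likelihood test, Benjamini-Hochberg adjustment, threshold 0.05). The differences between genotypes were interaction contrasts in 1 fit of all 20 ESC and NPC libraries, whose TMM scale also gave the CPM. All p-values are two-sided. The edgeR fits were tested on simulated data.

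Members and lists were chosen with earlier results of these data known. Of 1141 list entries 1124 matched the table by symbol or synonym. Named genes were the 10 largest changes in each direction among called genes with a mean of at least 5 CPM and no overlap between stages, fixed stage and interval genes, up to 4 called members of each list with the smallest p (2 where none was called), and the genes with the smallest p in each interaction. Other genes, such as the smallest changes of a list or those not called, were named after their values were seen. A fold against 0 counts uses 3 counts over the group, and ratios from 1 to 3 counts carry 95% intervals that cover counting error only. No libraries were identical or agreed within sampling noise. The 2 replicate numbers present at both stages gave correlations of deviations of 0.153 and -0.190 and were not taken as pairs between stages. Across genotypes, same-numbered libraries of 1 stage gave correlations of 0.189 to 0.618 in ESCs (9 pairs; different numbers -0.424 to 0.201) and of -0.0283 to 0.461 in NPCs (7 pairs; different numbers -0.365 to 0.215). Spike-in counts made up 1.80%, 0.732% and 0.738% of replicate 1 of the control, deletion and duplication-deletion ESCs. The other ESC and NPC libraries held almost none. In every genotype replicate 3 was the shallowest ESC library and replicate 5 the shallowest NPC library. The labels do not say what the numbers share, so by the data alone ESC numbers were taken as pairs across genotypes. The interactions are given with and without the number as a term. Motifs, promoters and microRNAs are from RefSeq tables of GRCm38.p6, matched by symbol. DESeq2 1.42.0, limma 3.58.1 (voom), a fold test (glmTreat, log2 fold 1), other scalings and filters, a replicate block and omission of libraries were alternatives. Neuron libraries and Hi-C were not used here. A few genes of the lists are not reported here.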

Additional observations from a re-analysis of the deposited data

Results flagged for a closer look

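Each value here is the log2 change from ESC to NPC in deletion cells minus that in another genotype. Each was singled out because the test of that difference passed the adjusted threshold without replicate number as a term. Genes called only with that term are given above. For 1700001L05Rik the difference from control cells was -2.95 and that from duplication-deletion cells was -3.46. For Rnf17 the difference from control cells was -5.80. For 2210016F16Rik and Zim1 the differences from duplication-deletion cells were -3.20 and -4.62. In Zim1 the duplication-deletion NPC libraries stood apart, at 15.7 to 25.5 CPM, and the deletion libraries lay within the range of the controls.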

How the results depend on the processing

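The counts of called genes in the deletion transition stayed within 1.5 times of the reported ones under DESeq2, limma-voom, other scalings, other filters, the 20-library fit and the omission of libraries. Under a test against a log2 fold of 1 they were 3427 in all, 1845 higher and 1582 lower. Without 1 library they ranged from 4186 to 5786 in all, from 2188 to 3111 higher and from 1980 to 2675 lower. With that fold test the shares called the same way were 83.9% of deletion and 79.8% of control calls, and 72.0% of deletion and 86.6% of duplication-deletion calls. The difference from control cells gave 27 genes with DESeq2 (8 higher, 19 lower), 1 with limma-voom (lower), and 1 gene was higher without ESC replicate 3 and NPC replicate 5 of every genotype. Without 1 library it gave 0 to 4 (0 to 2 higher, 0 to 3 lower). The difference from duplication-deletion cells gave 33 with DESeq2 (10 higher, 23 lower), 0 with limma-voom, 1 when scaled by library size only (lower), and 1 to 5 without 1 library (0 to 2 higher, 1 to 5 lower). With a replicate block, although the numbers do not pair the stages within deletion cells, the deletion transition gave 4066 calls (2159 higher, 1907 lower). With a replicate block the difference from control cells gave 7 (all lower) and that from duplication-deletion cells 7 (1 higher, 6 lower). With a replicate block within each stage, chosen after seeing the data, they gave 9 (all lower) and 11 (3 higher, 8 lower). The cause was not tested. Of 195 named genes called in the deletion transition, 15 lost the call without at least 1 library. List counts were within 1.5 times of the reported ones in 1425 results and settings and outside in 173. List medians moved by more than the spread between libraries in 108 results and settings and stayed within it in 691. The median of the isthmic list changed sign, to 1.42 with no filter, 1.06 in the 20-library fit, 0.97 without ESC 1 and 0.71 without ESC 3. Other medians changed sign too. The mesoderm median went from 0.62 to -0.39 with no filter. The hindbrain Hox median went from -0.97 to 9.7 with a CPM filter, which left 1 member tested. ESC 3, with 5578151 counts, limits what low genes can show.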
